A study of Mesocentrotus franciscanus with 18 samples.

Results

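The radial nerve of small red sea urchins, Mesocentrotus franciscanus, was compared with the muscle of Aristotle's lantern, the jaw apparatus, of the same size class. The comparison rests on 6 of the 18 RNA-Seq libraries of the series, 3 of radial nerve (RN-S) and 3 of lantern muscle (ALM-S), chosen by the tissue, size and year in their titles. The series followed changes with age in nerve, lantern muscle and esophagus by sampling small (young) and large (old) animals in the summers of 2010, 2011 and 2013. The animals of both groups were collected from the wild, and no treatment or genotype is named for them. Each library was made from a pool of equal amounts of RNA from the small animals of 1 year, so the RN-S and ALM-S libraries of a year hold RNA of the same animals and were taken as a pair. The spread within a group is therefore a spread between yearly pools and not between individuals. The sampling-year label reads 2010 for all 3 RN-S libraries, whereas their titles give 2010, 2011 and 2013, and the titles were followed.

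The radial nerves of a sea urchin run along the inside of the test beneath the ambulacra and join a ring around the mouth, and together they form the main part of the adult nervous system. They hold neurons, their fibers and supporting cells. Lantern muscle opens and closes the jaws, and it contracts by the sliding of actin and myosin filaments under calcium and nerve control. The comparison asks which genes differ between the tissues in animals of one size class, apart from any effect of age.

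The deposited values were estimated counts per Trinity gene grouping, that is, per cluster of assembled transcripts, and are given here as counts per 1000000 (CPM) after TMM scaling, which corrects for the share of a library taken by its most abundant transcripts. Total counts ranged from 8291800 to 11195218 in RN-S and from 9516568 to 11547218 in ALM-S. The 50 most counted groupings took 33.7 to 44.7% of the counts in RN-S libraries and 57.9 to 67.7% in ALM-S libraries. Pearson correlations of log CPM were 0.899 to 0.946 among RN-S libraries, 0.870 to 0.926 among ALM-S libraries and 0.665 to 0.753 between the tissues. The 3 ALM-S libraries and RN-S 2013 carry library names of one series, and RN-S 2010 and RN-S 2011 carry names of another, so for 2010 and 2011 the tissue and the library series cannot be told apart. In bulk tissue, fewer cells of a type and less RNA per cell cannot be told apart either.

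The markers of the tissues did not all stand on the side of their label, and muscle genes were also counted in the nerve libraries. Among nerve markers, the transmitter genes Th, Gad, Dbh_1 and Slc5a7_4 were higher in RN-S, whereas AchE, Neurx, Stx1 and Cadps were not called and Pclo_1 was lower. The paper reports Th, Gad, Dbh, Neurx, Stx1 and Pclo as rising with age in the radial nerve. The RN-S libraries were the low side of that comparison, so these markers may understate the level in nerve of other ages. Among muscle markers, ProjL, TropT, Tropmy1 and Msclact were lower in RN-S and Trop1 was not called, and values of these genes are given below. Tyrosine hydroxylase (Th), which makes the precursor of dopamine, had 21.2, 19.6 and 23.5 CPM in RN-S 2010, 2011 and 2013, against 0.179, 0.111 and 0.0973 CPM in ALM-S of the same years. The 17 tested genes of a sarcomere and contractile list summed to 190201, 85442 and 100064 CPM in RN-S and to 446017, 379723 and 314755 CPM in ALM-S. Most of both sums came from 1 grouping linked to muscle actin. The part of these muscle transcripts in the differences below was not tested. None of the 3 listed mucin genes was linked, so markers of gut epithelium were not examined.

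Of 26303 features with enough counts to test, 7231 met both thresholds, an adjusted p below 0.05 (Benjamini-Hochberg) in edgeR's quasi-likelihood test with the sampling year as a block and a fold change above 2, and are termed called. Among them 4409 were higher and 2822 lower in RN-S, so 27.5% of all features were called, 16.8% higher and 10.7% lower. Scaling by library totals in place of TMM turned the share of higher calls to 89.5% of 9963, against 61% here, and moved the median log2 fold change (log2FC, RN-S over ALM-S) of all features to 0.79, against 0.03 here. At a fold change above 4 there were 2779 features higher and 1119 lower. The count of called features was 3797 without the 2011 pair. A fold change is given below as log2FC ± SE of the edgeR fit, and each adjusted p is from this edgeR test over all features. With 3 libraries against 3, an exact permutation test of a single gene cannot go below p = 0.1, so none is given.

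**Figure D1:**
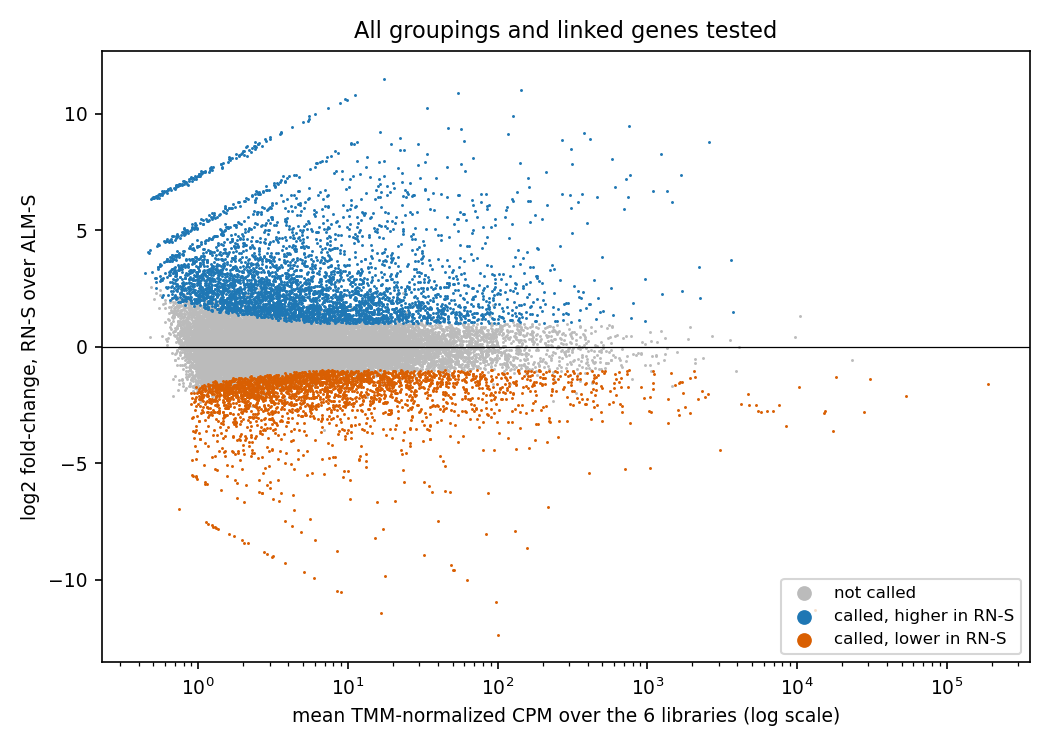
Log2 fold change (RN-S over ALM-S, y axis) of each of the 26303 tested features against its mean level (x axis, log scale of CPM), with called features colored by direction. Of the 4409 features higher in RN-S 2779 were above 4-fold, and of the 2822 lower ones 1119 were. The median of all features is 0.03.

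The deposited groupings carry no gene names. A total of 997 groupings or pairs of groupings were linked to genes of the purple sea urchin, Strongylocentrotus purpuratus (SPU), through equal counts printed beside SPU genes in the study's supplementary tables, and 803 of them had enough counts to test. Most of these genes were listed by the study because they changed with size in the radial nerve, in the same RN-S libraries, so their counts describe these genes and are not independent evidence for a direction. Others were listed through lantern muscle, in the same ALM-S libraries, or through esophagus. Within the tissue that listed it, a gene that fell with size was high in the small animals, and a gene that rose was low. Of the 803, 245 were higher and 106 lower in RN-S, beside 16.8% higher and 10.7% lower of all features, with a median log2FC of 0.48. Of 236 genes in 21 lists by function, 205 were linked, 176 were tested, and 52 were called higher and 36 lower, beside the same shares of all features.

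**Figure D2:**
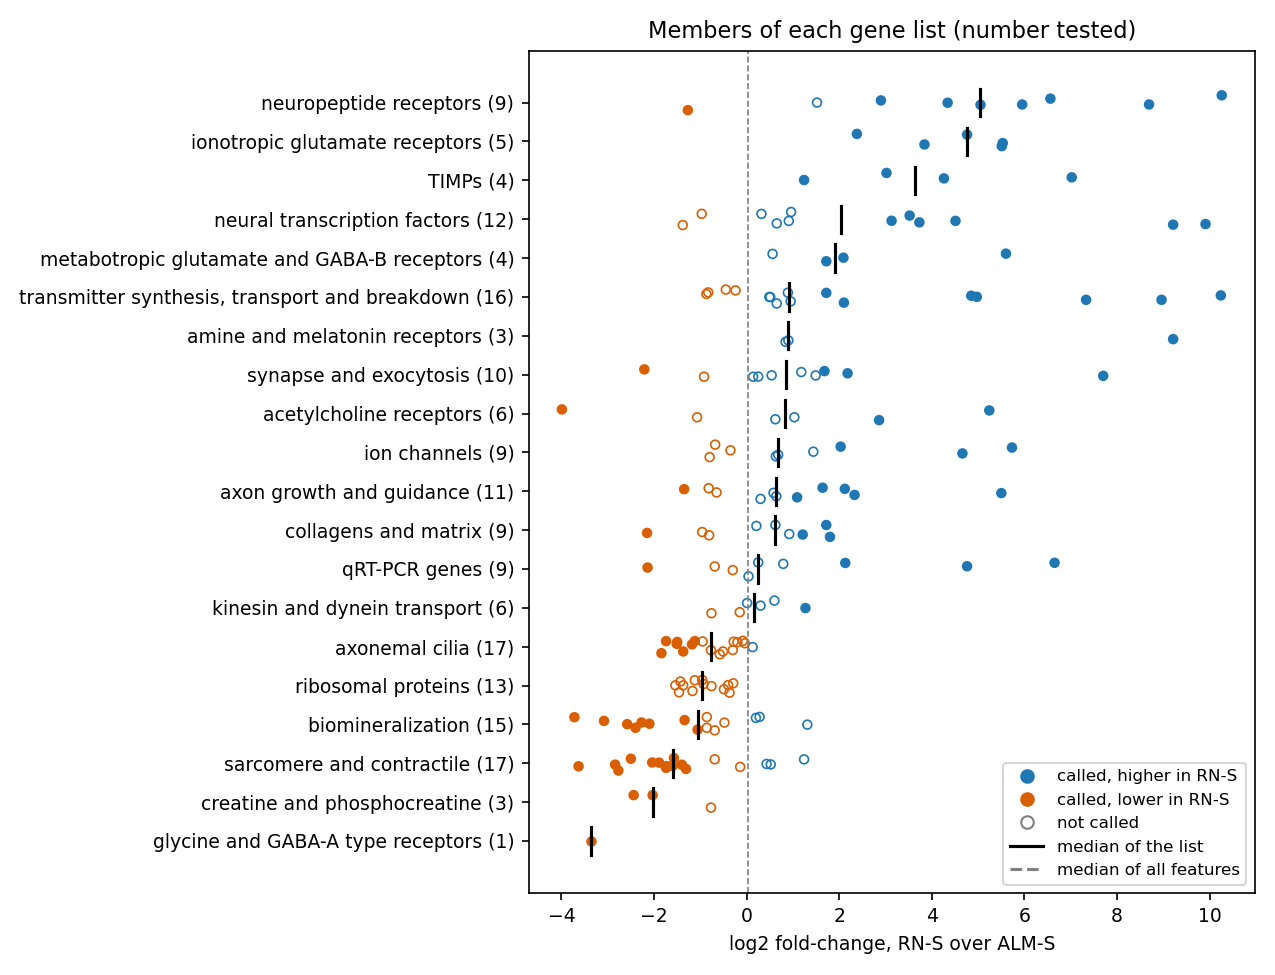
Log2 fold change (RN-S over ALM-S, x axis) of every tested member of the function lists, 1 point per gene and 1 row per list, with called members filled and the median of each list marked. The ionotropic glutamate receptor, neuropeptide receptor and TIMP lists have medians above 3 and the sarcomere, creatine and biomineralization lists, and the glycine and GABA-A receptor list with its 1 tested member at -3.36, medians below -1.

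The contractile genes were lower in the nerve. Of the 17 tested members of the sarcomere list, 12 fell and 0 rose in RN-S, with a median log2FC of -1.60, against 10.7% of all features lower; with library totals in place of TMM 6 fell and 3 rose, and without the 2011 pair 6 fell. My18A (SPU_010054), a myosin heavy chain whose closest human protein is the cardiac myosin MYH6, had 3560, 2159 and 2264 CPM in RN-S 2010, 2011 and 2013, against 37258, 29777 and 29467 CPM in ALM-S. Every ALM-S library lay above every RN-S library, and the log2FC was -3.63 ± 0.45 (edgeR adjusted p = 0.000149). Tropomyosin (Tropmy1, SPU_000128), which covers the myosin sites on actin until calcium rises, had 5009, 4056 and 2726 CPM in RN-S and 32896, 28536 and 18845 CPM in ALM-S. It was lowest in the 2013 pool of both tissues, and its log2FC was -2.77 ± 0.43 (edgeR adjusted p = 0.000623).

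Other sarcomere proteins followed. ProjL (SPU_013917), related to titin, the giant spring protein of the sarcomere, had 546, 501 and 382 CPM in RN-S and 3041, 3491 and 3603 CPM in ALM-S (log2FC -2.84 ± 0.38, edgeR adjusted p = 0.000252). Actinin (SPU_020920), which anchors actin filaments at the Z line, had 6741, 4068 and 3830 CPM in RN-S and 16588, 16915 and 13613 CPM in ALM-S, without overlap. Its log2FC was -1.73 ± 0.41 (edgeR adjusted p = 0.00872), and the call was lost without the 2011 pair. The regulatory light chain Mrlc had a log2FC of -2.50 and the troponin T gene TropT one of -1.89. Muscle actin (Msclact, SPU_006797) took the most counts in every library, at 147917, 61728 and 81845 CPM in RN-S and 331100, 274710 and 230872 CPM in ALM-S. The nerve libraries were lower in every year, by a log2FC of -1.60 ± 0.52 (edgeR adjusted p = 0.0391), but the call rested on the pairing by year: without it the adjusted p was 0.0854, with library totals it was 0.109, and it was 0.14 without the 2010 pair and 0.286 without the 2011 pair. Its closest human protein is the cytoplasmic actin ACTB, and RSEM may have divided reads among similar actin copies.

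Not all contractile genes were lower. Calponin-like Calpn, a regulator of smooth muscle contraction whose closest human protein is transgelin, had 21292, 9514 and 5044 CPM in RN-S and 8545, 8779 and 5486 CPM in ALM-S, so that the tissues overlapped (log2FC 0.43 ± 0.44, edgeR adjusted p = 0.505). Troponin I (Trop1), the inhibitory subunit of troponin, had 312, 306 and 382 CPM in RN-S and 753, 488 and 418 CPM in ALM-S, a difference that was not called (log2FC -0.69 ± 0.35, edgeR adjusted p = 0.165). The creatine genes lay on the side of muscle, 2 of 3 lower in RN-S, beside 10.7% of all features. Creatine kinase (Ckm, SPU_015350), which buffers ATP with phosphocreatine, had 1717, 1095 and 1174 CPM in RN-S and 8135, 7991 and 5458 CPM in ALM-S (log2FC -2.44 ± 0.40, edgeR adjusted p = 0.000856). Gatm, the first enzyme of creatine synthesis, had a log2FC of -2.03, and Gamt, the second, one of -0.77 that was not called.

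**Figure D3:**
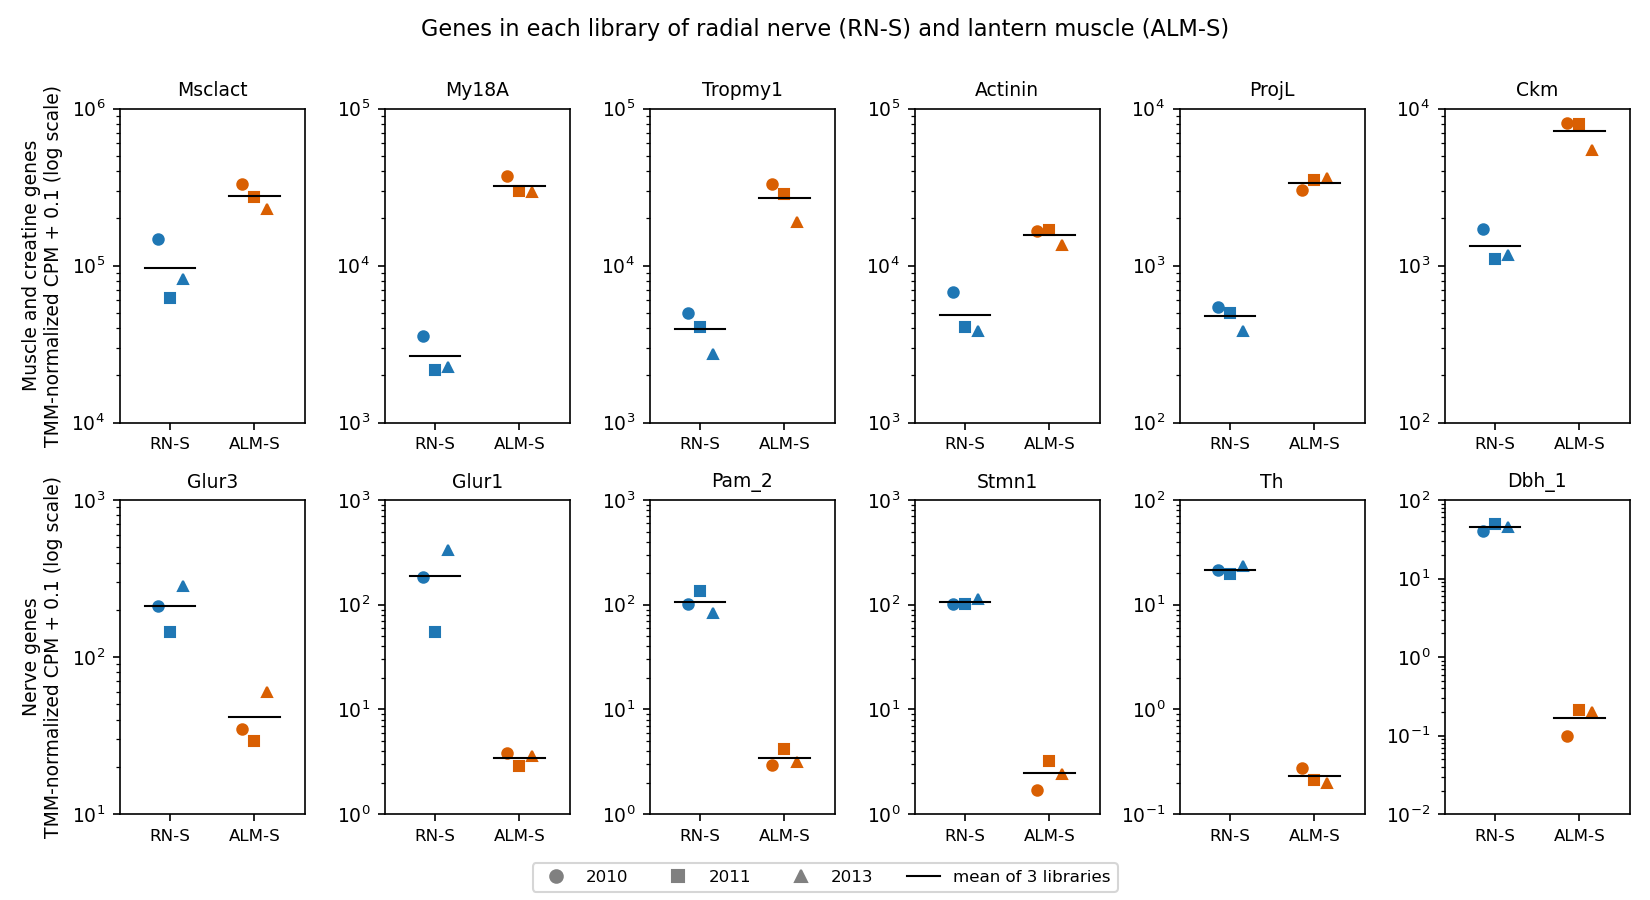
CPM + 0.1 (y axis, log scale) of 6 muscle and creatine genes (top) and 6 nerve genes (bottom) in each of the 6 libraries, RN-S left of ALM-S, with 1 point per library, its shape the year and a line at the mean of 3 libraries. All 3 RN-S points lie below all 3 ALM-S points in each upper panel and above them in each lower panel. Of all 26303 tested features, 6123 were higher and 4640 lower in RN-S without overlap. Markers that overlapped (Neurx, Calpn) or went the other way (Pclo_1) are not drawn.

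Enzymes and transporters of neurotransmitters included genes near 0 in muscle and genes that were not called between the tissues. Of the 16 tested members of the transmitter list, 7 rose and 0 fell in RN-S, with a median log2FC of 0.92, against 16.8% of all features higher. The choline transporter gene Slc5a7_4 (SPU_020026), which supplies choline for acetylcholine synthesis, had 95.9, 54.7 and 51.8 CPM in RN-S and 0, 0 and 0.0973 CPM in ALM-S. With 1 count in muscle against 2530 in nerve, the ratio was 1686, with a 95% interval of 302 to 66632; such intervals cover counting error only. Dopamine beta-hydroxylase (Dbh_1, SPU_008370), which in vertebrates turns dopamine into noradrenaline, had 39.9, 48.7 and 45.4 CPM in RN-S and 0, 0.111 and 0.0973 CPM in ALM-S, a ratio of 557 (154 to 4602). For Th, with the values given above, the ratio was 176 (60.1 to 857). These 3 genes were called with edgeR adjusted p = 2.55e-06 for Slc5a7_4 and Dbh_1 and 3.88e-06 for Th.

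Gad, which makes GABA from glutamate, was scarce in both tissues, at 1.82, 1.82 and 1.1 CPM in RN-S and 0.179, 0 and 0 CPM in ALM-S, a ratio of 40 (6.91 to 1606). Pam_2 (SPU_014640), the enzyme that amidates the end of many neuropeptides, had 101, 135 and 82.4 CPM in RN-S and 2.87, 4.1 and 3.02 CPM in ALM-S. The tissues were far apart in every year (log2FC 4.97 ± 0.36, edgeR adjusted p = 3.88e-06), and CbpdEL_1, a carboxypeptidase E relative that trims neuropeptide precursors, had a log2FC of 2.10. The 9 members that were not called were the acetylcholinesterase-like AchE, AchE_2 and AchE_5, the histamine methyltransferase genes HNMT and Hnmtl, the monoamine oxidase Maob and the transporters Gat, Glyt_3 and Glt1, with log2FC from -0.87 for Gat to 0.95 for Hnmtl; AchE had 0.89 (edgeR adjusted p = 0.304). AchE_2 had 56.7, 47.8 and 67.4 CPM in RN-S and 74, 91.2 and 68.6 CPM in ALM-S, the highest nerve value lying below the lowest muscle value by little.

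Ionotropic glutamate receptors, the ion channels that carry fast excitatory signals in many nervous systems, were higher in the nerve. Of 7 listed and 6 linked members 5 were tested, and 5 of 5 rose, beside 16.8% of all features higher. Glur1 (SPU_027899), closest to the human NMDA receptor subunit GRIN2A, had 182, 55.2 and 331 CPM in RN-S and 3.76, 2.77 and 3.5 CPM in ALM-S. The nerve values varied between years more than the muscle values did, and the lowest of them was still far above the muscle (log2FC 5.51 ± 0.49, edgeR adjusted p = 1.34e-05). Glur3, closest to the AMPA receptor subunit GRIA4, was the member with the most counts in muscle, with 212, 144 and 282 CPM in RN-S and 34.8, 29 and 60 CPM in ALM-S (log2FC 2.38 ± 0.32, edgeR adjusted p = 0.000226). Glur6, a kainate receptor relative, had a log2FC of 5.53, and 2 scarce members had ratios of 15.3 (5.03 to 76.2) for Glur2 and 35.3 (6.07 to 1421) for Glur6_2. Among the 4 tested metabotropic glutamate and GABA-B receptors, which act through G proteins, 3 rose and 0 fell, beside 16.8% of all features higher. Mglur3 (SPU_025315) had 17.6, 22.2 and 20.2 CPM in RN-S and 0.179, 0.221 and 0.779 CPM in ALM-S (log2FC 5.60 ± 0.51, edgeR adjusted p = 1.66e-05). Gabbr1_3, a GABA-B receptor gene, had a log2FC of 2.09 and Grm3 one of 1.72, the Grm3 call being lost without the 2011 pair.

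Receptors of acetylcholine differed by member, 2 of 6 tested genes being higher, 1 lower and 3 not called, beside 16.8% higher and 10.7% lower of all features. Chrna9 (SPU_017132), closest to the muscle-type nicotinic subunit CHRNA1 of vertebrates, had 245, 294 and 242 CPM in RN-S and 257, 191 and 99 CPM in ALM-S (log2FC 0.62 ± 0.35, edgeR adjusted p = 0.217). Nacha2 overlapped too, at 57.5, 37.4 and 34.2 CPM in RN-S and 8.07, 24.9 and 36.7 CPM in ALM-S, with a log2FC of 1.03 that was not called. Nacha7 (SPU_011220) went the other way, with 0.238, 0.218 and 0.183 CPM in RN-S and 3.94, 3.65 and 3.12 CPM in ALM-S (log2FC -3.99 ± 0.54, edgeR adjusted p = 0.00027). It was low in both tissues, but steady within each. Chrna7_8, by contrast, had 3.64, 4.29 and 2.56 CPM in RN-S and 0, 0 and 0.195 CPM in ALM-S, a ratio of 44.3 (12 to 370), and Chrm3L, named for a muscarinic receptor, had a log2FC of 2.86 that ranged from 2.05 to 3.76 with libraries or years left out. The closest human proteins of these 2 genes are receptors of other transmitters, the serotonin receptor HTR3E for Chrna7_8 and the histamine receptor HRH4 for Chrm3L. The only tested member of the glycine and GABA-A receptor list, Gabrb3L, closest to the human glycine receptor GLRA3, was lower in nerve, with 0.475, 0.363 and 0.365 CPM in RN-S and 3.23, 2.99 and 7.5 CPM in ALM-S (log2FC -3.36 ± 0.53, edgeR adjusted p = 0.000716).

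Of the 9 tested receptors of neuropeptides 7 rose and 1 fell in RN-S, beside 16.8% higher and 10.7% lower of all features. Their median log2FC was 5.05 as fitted and 4.34 with the 3 members at 0 in muscle set to their lower bound. Gpr54 (SPU_021219), named for the kisspeptin receptor and closest in human to the neurotensin receptor NTSR2, had 14.7, 17.1 and 12.7 CPM in RN-S and 0 counts in all 3 ALM-S libraries. Against a floor of 3 counts over the group it was at least 124-fold higher (edgeR adjusted p = 2.16e-05). On the same floor Sstr5L_2, named for a somatostatin receptor and closest in human to the olfactory receptor OR10P1, was at least 42.7-fold higher, and Ccap/NpSLr at least 9.11-fold higher. Sstr4L had 6.26, 9.52 and 15.3 CPM in RN-S and 0.179, 0.332 and 0.389 CPM in ALM-S (log2FC 5.05 ± 0.49, edgeR adjusted p = 2.55e-05), and Sstr5L had a log2FC of 2.90. NmbrL_4, named for the neuromedin B receptor and closest in human to the sphingosine phosphate receptor S1PR2, was the member that fell (log2FC -1.27 ± 0.40, edgeR adjusted p = 0.0334), and that call was lost without any one of the 3 years.

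Of the 3 tested amine and melatonin receptors 1 rose, beside 16.8% of all features higher. The melatonin receptor gene Mtnr1b_1 (SPU_020142) had 46.3, 21.7 and 29.9 CPM in RN-S and 0, 0 and 0.0973 CPM in ALM-S, 1 count in muscle against 1211 in nerve. Its ratio was 807 (145 to 31907), and the edgeR adjusted p was 3.3e-06. Htr1b and Htr1a, named for serotonin receptors, had log2FC of 0.90 and 0.84 that were not called, and the closest human protein of Htr1a is the adrenergic receptor ADRA2A.

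Of 10 tested members of the synapse and exocytosis list, 3 rose and 1 fell in RN-S, beside 16.8% higher and 10.7% lower of all features, with a median log2FC of 0.86, and the summed CPM of the list overlapped, at 81.3, 97.2 and 75.9 in RN-S and 53.1, 74 and 110 in ALM-S. Ap3b2-2, a subunit of the AP-3 adaptor complex of vesicle traffic, had 24, 25.2 and 15.6 CPM in RN-S and 4.48, 6.31 and 9.73 CPM in ALM-S (log2FC 1.68 ± 0.40, edgeR adjusted p = 0.00852). The ALM-S 2013 value stood nearest to the nerve, and the call was lost without the 2011 pair. Syt12, of the synaptotagmin family of membrane traffic proteins, had 1.9, 2.69 and 2.65 CPM in RN-S and 0 counts in ALM-S, at least 20-fold higher. Pclo_1 (SPU_012692), named for piccolo, a scaffold of the presynaptic active zone in vertebrates, was lower in the nerve, with 6.02, 8.65 and 6.66 CPM in RN-S and 18.8, 37.1 and 49.2 CPM in ALM-S (log2FC -2.21 ± 0.35, edgeR adjusted p = 0.000812). Neurexin (Neurx), a synaptic adhesion protein, had 11.1, 17.5 and 14.2 CPM in RN-S and 6.81, 10.5 and 22.4 CPM in ALM-S, and was not called (log2FC 0.25 ± 0.38, edgeR adjusted p = 0.668). The SNARE gene Stx1 and Cadps, both defining markers of this list, were not called either, with log2FC of 1.18 and 1.49. Neurx, Stx1 and Pclo were listed by the study as rising with age in the radial nerve, where the RN-S libraries were the low side.

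Among 11 tested genes of axon growth and guidance, 5 rose and 1 fell in RN-S, beside 16.8% higher and 10.7% lower of all features. Stathmin (Stmn1, SPU_004713), which takes microtubules apart and is abundant in growing vertebrate neurons, had 101, 102 and 114 CPM in RN-S and 1.61, 3.1 and 2.34 CPM in ALM-S. The 3 nerve libraries were nearly equal, and the log2FC was 5.50 ± 0.39 (edgeR adjusted p = 3.76e-06). Netrin1, a secreted guidance cue, had 227, 297 and 203 CPM in RN-S and 89.4, 111 and 142 CPM in ALM-S, a small difference whose call was lost without the 2010 or the 2011 pair (log2FC 1.09 ± 0.33, edgeR adjusted p = 0.0284). Taui1ph1, related to the microtubule-binding proteins tau and MAP2, was higher in muscle, with 100, 114 and 116 CPM in RN-S and 203, 250 and 428 CPM in ALM-S (log2FC -1.35 ± 0.33, edgeR adjusted p = 0.0101), and this call was lost without the 2011 pair. In kinesin and dynein transport, 1 of 6 tested members was called higher, against 16.8% of all features. This gene, Lis1, had a log2FC of 1.27 (edgeR adjusted p = 0.0175), and the call was lost without the 2011 pair (adjusted p = 0.203) and in the test against a 2-fold change (adjusted p = 0.326). The kinesin chains Khc and Klc had log2FC of 0.01 and 0.60 and were not called.

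Transcription factors with neural roles were higher or not called. Of 12 tested 6 rose and 0 fell, beside 16.8% higher and 10.7% lower of all features. Their median log2FC was 2.05, and with upper-quartile scaling in place of TMM 1 fell. Barx (SPU_001519), a homeobox factor, had 8.32, 7.2 and 17.3 CPM in RN-S and 0 counts in ALM-S, at least 87.5-fold higher (edgeR adjusted p = 3.94e-05). Brn1/2/4 (SPU_016443), a POU factor of neural precursors, had 6.81, 7.85 and 6.66 CPM in RN-S and 0 counts in ALM-S, at least 59.3-fold higher. FoxG, a forebrain factor in vertebrates, had 12.8, 6.61 and 15.5 CPM in RN-S and 0.538, 0.996 and 0.876 CPM in ALM-S (log2FC 3.73 ± 0.47, edgeR adjusted p = 0.000166), and Hox8 had a log2FC of 3.52. Nurr1, a nuclear receptor of dopamine neurons in vertebrates, overlapped between the tissues, with 35.6, 64.1 and 32.1 CPM in RN-S and 8.6, 41.6 and 48.5 CPM in ALM-S, and was not called (log2FC 0.65). ScratchX, a zinc finger factor, leaned toward muscle with a log2FC of -0.97 and was not called. Of 9 tested ion channel genes 3 rose and 0 fell, beside 16.8% higher and 10.7% lower of all features, and 2 rose without the pairing by year. The most counted of them, Ttyh2, Cngb1, Cacna2d2 and Kcnip4, were not called, with log2FC from -0.80 to 0.68.

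Inhibitors of matrix proteases were higher in the nerve. All 4 tested TIMP genes, of 5 listed, were higher in RN-S, beside 16.8% of all features, with a median log2FC of 3.64. The paper reports the TIMP genes as falling with age in the radial nerve. They were therefore listed through high values in the same RN-S libraries, and their direction here is not independent evidence. Timp4 (SPU_008865) had 375, 312 and 276 CPM in RN-S and 23.7, 48.7 and 50.4 CPM in ALM-S (log2FC 3.02 ± 0.39, edgeR adjusted p = 0.000198). Timp2b (SPU_008861) had 52.8, 33.4 and 33 CPM in RN-S and 0.179, 0.443 and 0.195 CPM in ALM-S (log2FC 7.02 ± 0.49, edgeR adjusted p = 3.71e-06). Timp2 had a log2FC of 4.26 and Timp2c one of 1.24, the Timp2c call being lost without the 2013 pair. The TIMP genes are similar copies of one family, among which RSEM may have divided reads. Of 9 tested collagen and matrix genes 3 rose and 1 fell, beside 16.8% higher and 10.7% lower of all features, and 3 rose and 0 fell without the pairing by year. Loxl2, which cross-links collagen, had a log2FC of 1.72, and the fibrillar collagen 6Afcol one of 1.21 that was lost without the 2011 pair. The 2 most counted collagens were not called: FcolI/II/IIIf had 956, 820 and 413 CPM in RN-S and 576, 358 and 230 CPM in ALM-S (log2FC 0.92), and A2col had a log2FC of 0.21.

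Listed genes of skeleton-forming cells were lower in the nerve or not called. The paper reports biomineralization genes as falling with age in lantern muscle and in radial nerve. The ALM-S and RN-S libraries used here were the high side of those comparisons, so the direction is not independent evidence. Of 15 biomineralization genes tested, 8 fell and 0 rose in RN-S, beside 10.7% lower and 16.8% higher of all features. Their median log2FC was -1.06, and with library totals in place of TMM 6 fell and 2 rose. The list summed to 603, 348 and 497 CPM in RN-S and 914, 892 and 944 CPM in ALM-S. Pm27 (SPU_030147), a spicule matrix protein, had 12.3, 11.3 and 7.58 CPM in RN-S and 64.7, 36.7 and 35.2 CPM in ALM-S (log2FC -2.10 ± 0.32, edgeR adjusted p = 0.000599). The carbonic anhydrase Cara14LA had the most counts of the list, at 301, 178 and 379 CPM in RN-S and 491, 570 and 661 CPM in ALM-S. Its call (log2FC -1.06 ± 0.35, edgeR adjusted p = 0.0395) was lost without the pairing by year, at an adjusted p of 0.062, and without the 2011 pair. Sm30E and Sm29, further spicule matrix genes, were not called, with log2FC of -0.69 and 0.28.

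Genes of motile cilia leaned the same way with smaller differences. Of 17 tested members of the axonemal cilia list 7 fell and 0 rose, beside 10.7% lower and 16.8% higher of all features. Their median log2FC was -0.77. But 0 were called with library totals in place of TMM, without the 2011 pair, or in the test against a 2-fold change. Iqcg, of the regulatory complex of ciliary dynein, had 70.9, 44 and 73 CPM in RN-S and 143, 139 and 135 CPM in ALM-S (log2FC -1.18 ± 0.32, edgeR adjusted p = 0.0154). Oad_bp58 had a log2FC of -1.37, and ODF3 had -0.08 and was not called.

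The study's category of immunity and lectins, which was read as the marker list of coelomocytes, the immune cells of the body fluid, was higher in the nerve in sum, at 1731, 1655 and 1567 CPM in RN-S and 616, 580 and 476 CPM in ALM-S. Of its 33 tested genes 17 rose and 3 fell, beside 16.8% higher and 10.7% lower of all features. The genes named from it were chosen after their values were seen, beyond those of the naming rule. Ams (SPU_021526), closest to the human olfactomedin OLFM1, had 240, 184 and 232 CPM in RN-S and 3.05, 4.87 and 5.74 CPM in ALM-S (log2FC 5.59 ± 0.40, edgeR adjusted p = 3.88e-06). The antimicrobial peptide gene strongylocin had 145, 177 and 109 CPM in RN-S and 21, 18.8 and 12.7 CPM in ALM-S (log2FC 3.05 ± 0.32, edgeR adjusted p = 4.87e-05). The scavenger receptor gene Srcr226 ran the other way, with 0.0792, 0.291 and 0 CPM in RN-S and 14.7, 32.5 and 54.9 CPM in ALM-S (log2FC -7.81 ± 0.63, edgeR adjusted p = 8.2e-06; -9.25 to -7.01 with libraries or years left out).

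Among the linked genes with a name, the 10 largest increases included Slc5a7_4, Gpr54, Mtnr1b_1, Dbh_1, Barx and Brn1/2/4 above. The other 4 were Slc5a8, a sodium-coupled solute transporter with 21.7, 13.2 and 22.8 CPM in RN-S and 0 counts in ALM-S (at least 157-fold higher), Dmrt2 (at least 98.9-fold), Slc45-1 (at least 59.3-fold) and Myor4. Myor4 (SPU_016445), a basic helix-loop-helix factor, had 129, 106 and 107 CPM in RN-S and 0.359, 0 and 0.195 CPM in ALM-S (log2FC 9.34 ± 0.58, edgeR adjusted p = 2.55e-06). The 10 largest decreases included Srcr226 and Nacha7 above. Cola2L_2 (SPU_020139), closest to human thrombospondin THBS1, a matrix glycoprotein, had 2.53, 3.49 and 5.29 CPM in RN-S and 387, 390 and 514 CPM in ALM-S (log2FC -6.87 ± 0.41, edgeR adjusted p = 2.49e-06). Sfe9 had 0.0792, 1.89 and 0.183 CPM in RN-S and 265, 117 and 116 CPM in ALM-S (log2FC -8.06 ± 0.81, edgeR adjusted p = 3.44e-05), and the log2FC was -10.31 without the 2011 pair and -6.98 without the 2010 pair. Hypp_59, Hypp_2548 and the lectin gene Clect_35 had 0 counts in all RN-S libraries and were at least 95-fold, 67-fold and 63-fold lower there.

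Some of the largest differences fell on groupings with no linked gene. TRINITY_DN1974_c0_g1 had 315, 346 and 199 CPM in RN-S and 0.179, 0.111 and 0.0973 CPM in ALM-S, 1 count in each muscle library, and its ratio was 2424 (829 to 11756). TRINITY_DN12465_c0_g3 had 32.3, 28.6 and 43.2 CPM in RN-S and 0 counts in ALM-S, at least 283-fold higher. In the other direction TRINITY_DN1505_c2_g1 had 0.0792, 0 and 0 CPM in RN-S and 212, 214 and 179 CPM in ALM-S, a ratio of 7436 (1334 to 293747) toward muscle. TRINITY_DN120819_c0_g1 had 0 counts in RN-S and 38.4, 25.3 and 36.4 CPM in ALM-S, at least 409-fold lower in RN-S. Of the tested features, 143 had 0 counts in the 3 ALM-S libraries and 23 had 0 counts in the 3 RN-S libraries, and all of them were called. Such features pass the filter on low counts only through the other tissue, so their calls are no separate result.

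The linked genes with the most counts in the nerve, beside actin, calponin, actinin and tropomyosin, included Thymbh, of the actin-binding beta-thymosins, with 17015, 9270 and 17930 CPM in RN-S and 10319, 5644 and 2978 CPM in ALM-S. The tissues overlapped, and the difference was not called (log2FC 1.32 ± 0.49, edgeR adjusted p = 0.065). The ferritin heavy chain gene FerHc, for iron storage, had a log2FC of -0.02. Igcam/Igcam was higher in muscle, with 2132, 1092 and 1025 CPM in RN-S and 13021, 10390 and 5383 CPM in ALM-S (log2FC -2.75 ± 0.41, edgeR adjusted p = 0.000527).

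A further list held genes measured by qRT-PCR for change with size. Of its 12 genes 9 were linked and tested here. In RN-S 3 were higher and 1 lower, beside 16.8% higher and 10.7% lower of all features. Mab21l2 (SPU_001059), a gene of eye and brain development in vertebrates, had 356, 132 and 310 CPM in RN-S and 1.79, 2.55 and 2.82 CPM in ALM-S (log2FC 6.65 ± 0.48, edgeR adjusted p = 3.88e-06). Echinbp had 679, 461 and 549 CPM in RN-S and 180, 172 and 65 CPM in ALM-S (log2FC 2.13 ± 0.39, edgeR adjusted p = 0.00198). Glur6_2 was the other gene that rose, and the kinase gene Lkb1 fell, with 3.96, 4.22 and 8.12 CPM in RN-S and 20.3, 20.9 and 28.1 CPM in ALM-S (log2FC -2.14 ± 0.34, edgeR adjusted p = 0.000682). Neurx, Sm30E, MAP3K9 (log2FC 0.04), the protease gene Capn (log2FC -0.30) and the myostatin gene MstnB (log2FC 0.79) were not called. The links of Lkb1 and MAP3K9 rest on a mean count, the least direct kind of link.

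The 2013 pair, in which nerve and muscle belong to the same library series, was read against the others. A fit to the 2010 and 2011 pairs alone called 9185 of the features tested here, and 8046 of them, or 87.6%, had the same sign in the 2013 pair, beside 70.9% of all features tested in both. The share with the same sign and a ratio above 2-fold in the 2013 pair was 57%. The fit and this pair share no library. A total of 31 called features of the fit to all years had the opposite sign in 2013. Median log2 ratios of CPM + 0.1 within a pair were, for the sarcomere list, -1.27 in 2010, -2.06 in 2011 and -1.55 in 2013, and for the axon list 1.02, 1.42 and 0.06.

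**Figure D4:**
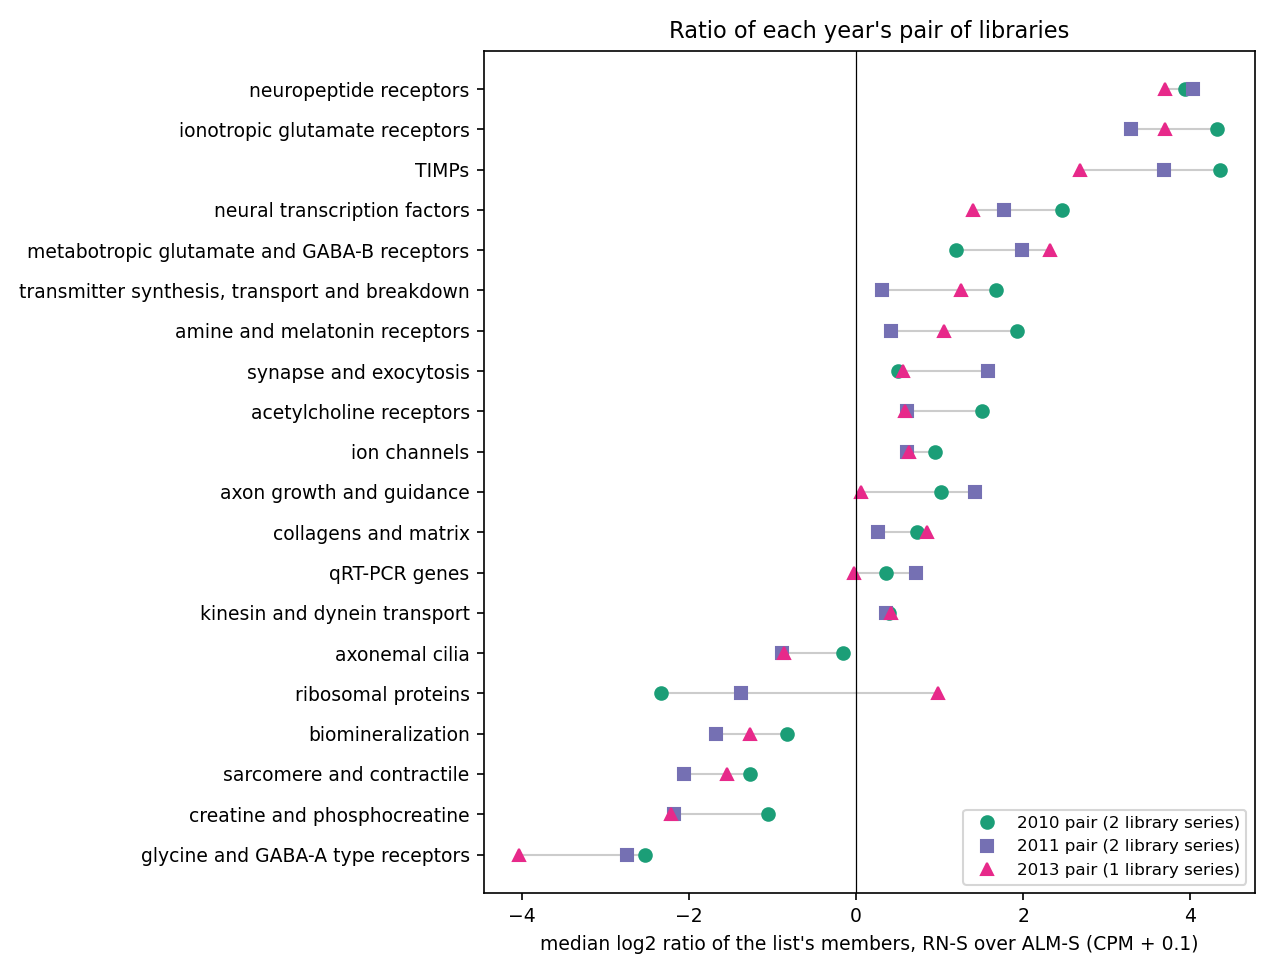
Median log2 ratio (RN-S over ALM-S, x axis) of each function list in the 2010, 2011 and 2013 pairs, 1 point per year. The grey line spans the years of a list. Of the 20 lists 18 keep their side of 0 in all 3 years, and the ribosomal proteins lie below 0 in 2010 and 2011 and at 0.98 in 2013.

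The ribosomal proteins changed sign between years. Of 13 tested members 0 were called by edgeR over the 3 pairs, 2 being at an unadjusted p under 0.05, and DESeq2 called 3 lower (median log2FC in edgeR -0.96, or -0.17 with library totals in place of TMM). The median log2 ratio was -2.34 in 2010, -1.38 in 2011 and 0.98 in 2013. In 2010 and 2011 0 of 13 members were positive, and in 2013 13 of 13 were. All 13 were highest in ALM-S 2010, and 8 were lowest in RN-S 2010. The list summed to 4060, 2803 and 9421 CPM in RN-S and to 12936, 7326 and 4861 CPM in ALM-S, so the RN-S 2013 library stood above the other nerve libraries and the muscle libraries differed among themselves. Rpl29 had 77.8, 106 and 658 CPM in RN-S and 712, 334 and 193 CPM in ALM-S, and Rpl37a had 892, 600 and 1207 CPM in RN-S and 1971, 1161 and 617 CPM in ALM-S. Without the 2013 pair 12 of the 13 were called lower in RN-S. RN-S 2013 is also the nerve library of the muscle series, and its part in this sign was not tested.

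**Figure D5:**
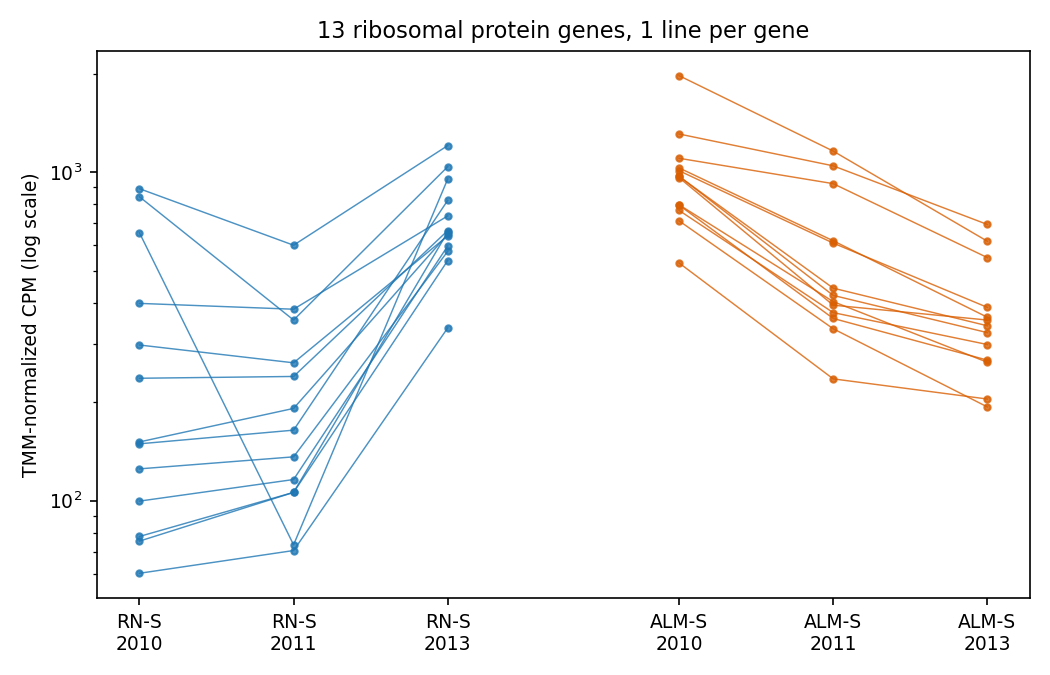
CPM (y axis, log scale) of the 13 tested ribosomal protein genes in the 3 RN-S libraries, left, and the 3 ALM-S libraries, right, with the 2 libraries of each year in the same order. Each line joins the values of 1 gene, and RN-S exceeds ALM-S of the same year in 2013 alone.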

How the data were processed

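RNA-Seq libraries of pooled RNA were made with the SMARTer cDNA kit and sequenced as paired-end Illumina reads. Per the submitters' processing notes the tools were FastQC 0.10.1, Trimmomatic 0.38, Bowtie2 2.3.4, RSEM and DESeq 1.20, and the assembly was made with Trinity. The authors deposited RSEM's estimated counts per gene grouping as whole numbers, with no normalization. Reads of similar copies were assigned by RSEM, so values of gene families are uncertain.

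Columns were matched to samples by title. The 12 columns of the other groups entered only 1 alternative, a fit to all 18 libraries. The members and lists were chosen with earlier results of these data known. Groupings were linked to SPU genes by equal counts, for identity only: a single grouping with at least 20 counts (592 genes), a pair summed (88), a grouping with at least 95% of at least 100 counts and no excess (211), or a mean count (106). Shuffled counts linked 0 genes. Mean counts were not shuffled but moved by a small fraction, and 2 of 267 were then linked. Linked features replaced their groupings, which gave 127110 features. A link made through nerve counts can miss a further grouping without any.

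Counts were filtered with filterByExpr (26303 features), scaled by TMM and tested with edgeR 4.0.16 (glmQLFit, glmQLFTest) in R 4.3.3 with limma 3.58.1, sampling year as a block, and Benjamini-Hochberg adjustment. The biological coefficient of variation was 0.33 with the block and 0.382 without. Libraries were paired because those of a year hold RNA of the same animals. Deviations of same-year libraries from their group means correlated at 0.173 in 2010, 0.342 in 2011 and 0.248 in 2013. Those of different years correlated at -0.248 to -0.0281. Shared animals and a shared collection year cannot be told apart here. SE is the absolute log2FC over the square root of F. Counts of 0 in a group were set to a floor of 3 counts over the group, and ratios with 1 to 3 counts carry exact 95% binomial intervals. DESeq2 1.42.0, other scalings, filters and left-out libraries were alternatives. The tests were checked on simulated data in which few features changed, as many up as down. That check did not cover how the calls depend on scaling between tissues as unlike as these. At these depths 1 CPM is about 10 counts before scaling.

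Genes named are the up to 4 members of each list with the highest mean CPM, the 10 largest increases and decreases with a name called in the same direction in 3 of 3 years, the linked qRT-PCR genes, the 2 largest unlinked changes each way, and the up to 5 linked genes with the most CPM in each tissue. Defining markers and other list members were named beside them after their values were seen. Not every gene of the rule has its own sentence. Some genes of the rule are not reported here.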

Additional observations from a re-analysis of the deposited data

Results flagged for a closer look

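The ribosomal proteins stood out because the yearly pairs went in opposite directions. The median log2 ratio of RN-S over ALM-S of the 13 tested members was 0.98 in the 2013 pair, with 13 of 13 members positive, against -2.34 in the 2010 pair and -1.38 in the 2011 pair, with 0 of 13 positive in each. The difference between years was not tested, since a year has 1 library of each tissue. The 2013 pair is also the pair within 1 library series, and the part of the library series was not tested.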

How the results depend on the processing

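Counts of calls moved with the settings. Over all features 7231 were called, against 2637 of 7543 tested at 10 CPM or more in 3 libraries, 3633 in a test against a 2-fold change and 1605 with RN-S 2013 alone against ALM-S. They ranged from 3797 (without 2011) to 9913 when a year was left out, and from 4082 to 7645 when 1 library was left out of the fit without the block. Without the replicate block 6318 features were called, 3740 of them at 4-fold (3316 to 5406 with a year left out, against 3898). Without a filter 10322 were called, 69.4% of them higher, and DESeq2 called 6698. For the linked genes the counts were 351 in the fit to all years, 176 at 10 CPM, 225 in the 2-fold test, 135 with RN-S 2013 alone and 200 of 452 with single equal links, 316 without the block, and 239 to 405 with libraries or years left out. For the list genes they were 88, 53 at 10 CPM, 34 with RN-S 2013 alone, 57 of 103 with single equal links, 82 without the block and 62 to 105 with libraries or years left out.

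Of 1185 values of the 67 called genes and groupings of the naming rule that are reported here, 1051 kept the call, 134 lost it and 0 changed sign. Without the replicate block the calls of Msclact and Cara14LA were lost and no other. Leaving out the 2011 pair lost 13 calls, the 2010 pair 3 and the 2013 pair 2, over 14 genes: 6Afcol, Actinin, Ap3b2-2, Cara14LA, Grm3, Iqcg, Lis1, Msclact, Msp130r2, Netrin1, NmbrL_4, Oad_bp58, Taui1ph1 and Timp2c. Changes of sign were all in genes that were not called, and their cause was not tested. With RN-S 2013 alone the log2FC was -0.03 for Nurr1, 0.13 for Rpl11, -0.72 for Sm29, 0.13 for Cacna2d2, 0.01 for ODF3, -0.59 for Calpn, 0.19 for FerHc, -0.25 for A2col and 0.27 for Rpl15. With library totals in place of TMM it was 0.41 for Rpl11, 0.32 for AchE_2, 0.08 for Sm30E, 0.00 for Gamt, 0.38 for Rpl37a, 0.12 for RoboL_1, 0.01 for KifC3L1, 0.41 for Cacna2d2, 0.69 for ODF3, 0.47 for Capn, 0.75 for FerHc and 0.49 for Rpl15. At 10 CPM it was -0.13 for Khc, without a filter 0.05 for ODF3 and 0.10 for FerHc, and with upper-quartile scaling -0.05 for MAP3K9 and -0.09 for Khc. Khc had -0.07 without the replicate block and -0.02 in DESeq2. With libraries or years left out the log2FC ranged from -0.07 to 1.20 for Nurr1, -1.13 to 0.17 for Rpl11, -0.16 to 0.83 for Sm29, -1.14 to 0.01 for Rpl37a, -0.27 to 0.07 for ODF3, -0.05 to 1.01 for Calpn, -0.10 to 0.20 for MAP3K9, -0.33 to 0.43 for Khc, -0.43 to 0.20 for FerHc, -0.24 to 0.63 for Neurx, -0.25 to 0.50 for A2col and -0.98 to 0.28 for Rpl15.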

Other observations

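The study's calcium toolkit category holds calcium-binding proteins, channels, exchangers and receptors, and of its 19 tested genes 10 rose and 1 fell in RN-S, beside 16.8% higher and 10.7% lower of all features, with a median log2FC of 1.42. The genes named here were chosen after their values were seen. Pcalr (SPU_020633) had 583, 698 and 541 CPM in RN-S and 11.5, 9.63 and 8.18 CPM in ALM-S (log2FC 5.97 ± 0.39, edgeR adjusted p = 2.66e-06), and Calm2, named for calmodulin, had 367, 296 and 296 CPM in RN-S and 17.2, 5.09 and 5.26 CPM in ALM-S. Asph, named for aspartate beta-hydroxylase, was the 1 gene that fell, with a log2FC of -1.21.

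GDF11 and IHH, outside the function lists, were also chosen after their values were seen. GDF11, a member of the TGF-beta superfamily, had 319, 328 and 305 CPM in RN-S and 5.02, 2.21 and 5.94 CPM in ALM-S (log2FC 6.26 ± 0.45, edgeR adjusted p = 3.88e-06). IHH, of the hedgehog family, had 46.9, 60.8 and 50.7 CPM in RN-S and 1.61, 0.332 and 0.195 CPM in ALM-S (log2FC 6.49 ± 0.58, edgeR adjusted p = 1.47e-05). These links rest on a mean count, the least direct of the links. With the mean counts moved by a small fraction, 2 of 267 genes were also linked. Of 46 tested protein trafficking genes 13 rose and 0 fell, and of 21 mitochondrial genes 2 rose and 5 fell, beside 16.8% higher and 10.7% lower of all features.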
